A study of Mus musculus with 4 samples.

Results

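DNA methylation was measured at CpG sites in and around 10 genes encoding transcription factors of mesoderm, endoderm and trophoblast: Gata2, Gata3, Gata4, Gata6, Sox17, Foxa2, Hand1, Hnf4a, Cdx2 and Elf5. They were taken by name from the 21938 protein-coding genes of the GENCODE M21 annotation. For each gene, the sites within 1 kb of the start site and the sites in the rest of the gene body were summarised separately. The question was at which of these genes of other lineages methylation was higher in neurons than in the embryonic stem cells (ESCs) they came from.

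The series held 4 mouse libraries made by reduced representation bisulfite sequencing (RRBS), which reads CpG-rich parts of the genome after digestion with MspI, 1 library for each of 4 conditions. R1 ESCs are a wild-type line, and Dnmt1 Tet/Tet ESCs derive from R1 and overexpress DNMT1 from tet-off constructs knocked in downstream of the Dnmt1 promoter. The Tet/Tet ESC culture was kept under selection with 1 ug/ml puromycin and 150 ug/ml neomycin. Neurons were derived from each line through 2 days as embryoid bodies, followed by 10 to 15 days in NDiff227 medium. The labels give no sorting of the neurons, so each neuron library was taken as a whole culture. The ESC libraries and the neuron libraries came from separate sequencing projects. Extraction of their DNA was recorded as phenol/chloroform for ESCs and a column kit for neurons, while the paper describes phenol/chloroform for both cell types. Cell type, sequencing project and any difference in extraction therefore cannot be told apart, while R1 and Tet/Tet of the same cell type share a project.

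Each value is the percent of reads methylated at a site, and the read numbers behind it were not used here, so the depth of each site is unknown. With 1 library per condition there was no replicate check and no test. A ± value below is the standard deviation (SD) over the sites of a region. It describes variation along the DNA, not between cultures. Means were taken over sites listed in all 4 libraries, called shared sites, and a gene region needed at least 5 of them. Where 4 values follow each other without names, they stand for ESCs of R1, ESCs of Tet/Tet, neurons of R1 and neurons of Tet/Tet, in this order. A gene was called apart when 2 libraries differed by at least 10 percentage points. Over the 1545651 shared sites of the genome, the mean level of R1 was 26.8% as ESCs and 53.3% as neurons, and that of Tet/Tet 28.1% and 10.9%. The largest difference in the series was thus the low level of the Tet/Tet neurons against the R1 neurons. Methylation does not show whether a marker is expressed, so the identity of the cells was not checked by expression. As a description, the start of Pou5f1, a pluripotency factor, was at 1.90% in R1 ESCs and 36.1% in R1 neurons. The starts of the neural genes Pax6, Neurog2 and Map2 stayed between 3.52% and 7.95% in R1 neurons, and that of Neurod1, another neural factor, was at 13.4%.

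DNMT1 copies methylation onto the new strand when DNA replicates. Start sites that lie in CpG islands, which are stretches dense in CpG, are usually unmethylated whether or not the gene is used. Start sites with few CpGs more often follow the level of the surrounding DNA. Most of the genes studied here act mainly in lineages other than neurons. Elf5 is a textbook case of a lineage gate: its promoter is methylated in the embryo proper and unmethylated in the trophoblast lineage. Many of the others are held silent in ESCs by Polycomb proteins over wide CpG islands rather than by DNA methylation.

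The 300 bases just upstream of the start site are shown for the members with the largest and the smallest difference between R1 neurons and R1 ESCs, Hnf4a and Cdx2. Hand1 is added as the member with the largest difference among those with at least 10 shared sites, and Foxa2 as the one with the largest difference among those with an island at the start. Those 2 were chosen after their values were seen. Each is written from 5′ to 3′ along the strand of the gene, in mm10, with every CpG in capitals.
Hand1, chr11:57832819-57833118, minus strand: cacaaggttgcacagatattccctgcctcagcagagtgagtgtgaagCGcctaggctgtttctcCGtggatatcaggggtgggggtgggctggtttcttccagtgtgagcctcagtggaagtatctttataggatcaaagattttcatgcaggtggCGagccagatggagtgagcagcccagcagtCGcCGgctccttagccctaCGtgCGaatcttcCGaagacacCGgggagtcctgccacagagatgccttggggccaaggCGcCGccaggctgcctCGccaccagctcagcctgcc
Foxa2, chr2:148046970-148047269, minus strand: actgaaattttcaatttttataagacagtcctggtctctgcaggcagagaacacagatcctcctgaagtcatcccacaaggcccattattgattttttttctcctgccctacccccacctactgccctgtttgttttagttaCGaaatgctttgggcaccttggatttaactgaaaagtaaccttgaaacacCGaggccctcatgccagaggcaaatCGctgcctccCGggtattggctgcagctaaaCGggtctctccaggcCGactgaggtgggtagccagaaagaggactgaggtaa
Hnf4a, chr2:163506508-163506807, plus strand: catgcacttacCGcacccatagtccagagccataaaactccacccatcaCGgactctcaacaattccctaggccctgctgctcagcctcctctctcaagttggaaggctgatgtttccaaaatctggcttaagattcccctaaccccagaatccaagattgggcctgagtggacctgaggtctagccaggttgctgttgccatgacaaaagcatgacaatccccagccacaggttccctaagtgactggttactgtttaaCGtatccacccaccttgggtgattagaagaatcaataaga
Cdx2, chr5:147307271-147307570, minus strand: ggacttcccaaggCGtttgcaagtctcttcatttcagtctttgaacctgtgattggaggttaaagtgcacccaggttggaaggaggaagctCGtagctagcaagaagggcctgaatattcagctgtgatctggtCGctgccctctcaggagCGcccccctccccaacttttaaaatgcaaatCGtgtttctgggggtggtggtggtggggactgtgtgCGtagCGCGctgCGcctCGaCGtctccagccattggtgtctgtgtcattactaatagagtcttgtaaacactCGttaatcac
The Hnf4a window held 3 CpGs, Foxa2 6, and Hand1 and Cdx2 12 each. In the Hand1 window, 8 shared sites averaged 11.8% in ESCs and 49.8% in neurons of R1, and 8.68% and 11.3% in those of Tet/Tet. In the Foxa2 window, 5 shared sites averaged 2.09%, 6.43%, 34.3% and 1.23%. As both genes were chosen for their difference, these values are a description. The Hnf4a and Cdx2 windows held no shared site, so their values below come from sites on the other side of the start.

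Within 1 kb of the start, 9 of the 10 genes had enough shared sites. In R1 neurons, 5 of these 9 were at least 10 points higher than in R1 ESCs, against 26.2% of all 11466 genes measured in the same way, and none was lower, against 0.140%. In order of the difference they were Hnf4a (55.2 points), Gata4 (46.0), Hand1 (35.2), Foxa2 (10.7) and Gata3 (10.5). Sox17 (7.58) and Gata2 (7.51) came next, and Gata6 (0.96) and Cdx2 (0.55) were nearly level. Foxa2 and Gata3 were just past 10 points, and the count was 3 with each library's own sites or with medians over sites. The median difference was 10.5 points for the 9 members and 2.36 points for all genes.

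**Figure D1:**
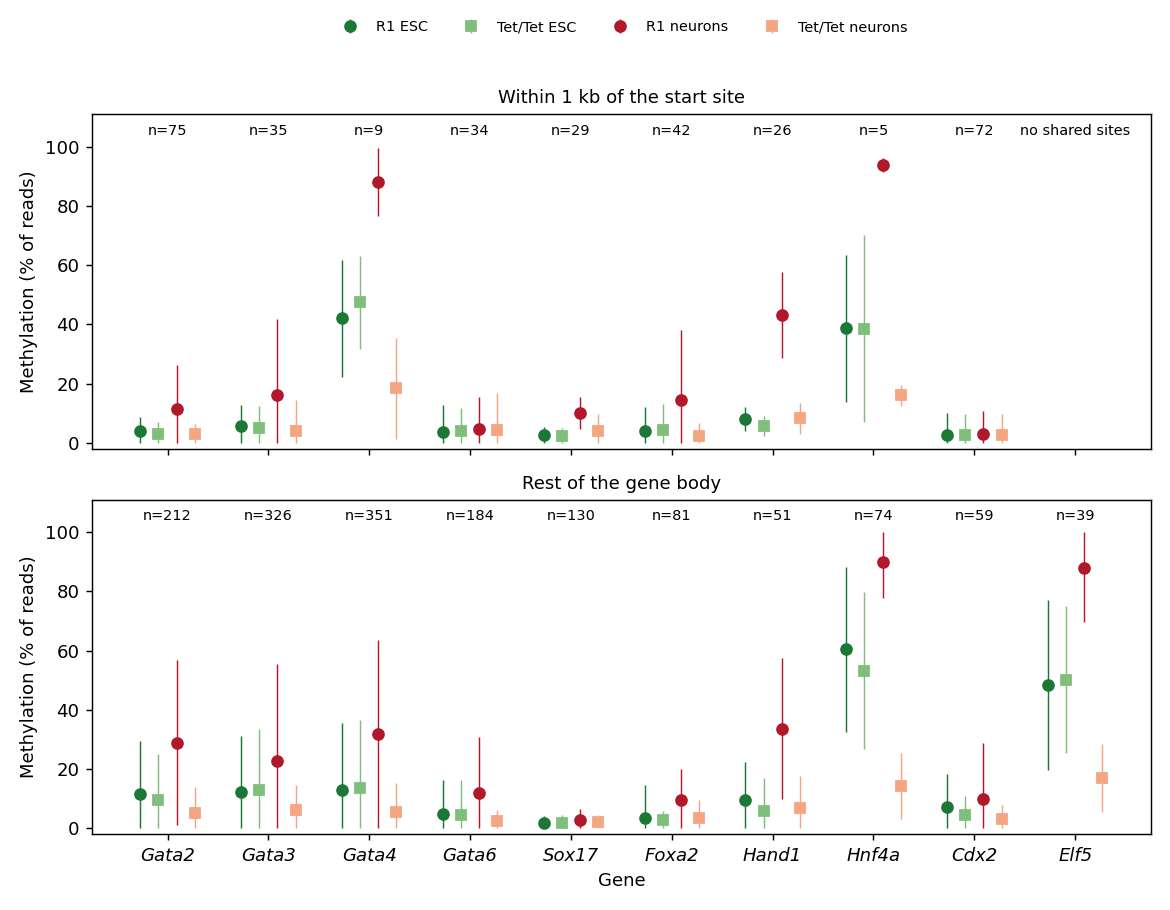
Mean methylation in percent of reads (vertical axis) of each gene (horizontal axis) in the 4 libraries, within 1 kb of the start site (top) and in the rest of the gene body (bottom). Points are means over the shared sites, whose number stands above each gene, and bars are the SD over sites, drawn no further than 0 and 100%. R1 neurons are the highest library at Gata4, Hand1 and Hnf4a in both panels, and the Tet/Tet neurons are below 20% everywhere.

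Whether a CpG island lay at the start went along with part of this order. The number of CpGs in the window did not follow it throughout, with 66 at Hand1 and 63 at Gata3. Hnf4a, Gata4, Hand1 and Elf5 had no CpG island within 1 kb of the start of the gene record, and the first 3 of these had the largest differences. For Gata4 this holds at that start only. Its principal transcript starts further downstream inside an island, and there R1 neurons were 3.84 points above R1 ESCs. The other 6 members had an island there, and only Foxa2 and Gata3 of them passed 10 points. Among all genes, 84.2% of those without an island at the start were at least 10 points higher in R1 neurons, and 17.8% of those with one. When only sites inside islands were kept, none of the 6 members passed 10 points. No share of all genes is given for this restriction, so the count describes the members only.

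Among the factors linked to mesoderm and its derivatives, Hand1 changed over its whole start region. Hand1 (ENSMUSG00000037335.13, chr11:57828705-57832818, minus strand) encodes a basic helix-loop-helix factor of heart, lateral mesoderm and trophoblast giant cells. Its 26 shared sites averaged 8.02% ± 4.19 in R1 ESCs and 43.3% ± 14.5 in R1 neurons, with 5.68% ± 3.35 and 8.23% ± 5.21 in the Tet/Tet counterparts. The R1 neurons stood apart from the other 3 libraries, which differed by less than 3 points. In a bulk culture, a level between 0 and 100% cannot tell apart a share of methylated cells and partial methylation in each cell. In R1 neurons the level was 48.8% between 1000 and 501 bases upstream, 49.8% in the next 500 bases, 42.5% in the first 500 bases downstream and 29.8% beyond. No Hand1 site exceeded 20.7% in the other 3 libraries, while 9 of the 26 sites were at 50% or more in R1 neurons. At the second annotated start, 671 bases downstream, 38 sites gave 9.82% in R1 ESCs and 44.2% in R1 neurons.

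Gata4 (ENSMUSG00000021944.15, chr14:63198922-63271692, minus strand) encodes a GATA factor of heart and primitive endoderm. Around the start of the gene record, 9 shared sites averaged 42.0% ± 19.8 in ESCs and 88.0% ± 11.5 in neurons of R1, and 47.5% ± 15.7 and 18.4% ± 17.0 in those of Tet/Tet. All 9 sites were at 60.0% or more in R1 neurons and all 9 were at 48.3% or less in Tet/Tet neurons. The principal transcript, which encodes the main protein, starts 26444 bases further downstream. There, 66 shared sites averaged 4.44% in R1 ESCs and 8.27% in R1 neurons, with 4.27% and 3.45% in the Tet/Tet counterparts. A further start, 58085 bases downstream, had 3 shared sites, at 51.4% in ESCs and 89.1% in neurons of R1. The level at Gata4 in R1 neurons was therefore low at the start of the principal transcript and high at the other 2 places.

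Gata2 (ENSMUSG00000015053.14, chr6:88193891-88207032, plus strand) encodes a GATA factor of blood progenitors. Its 75 shared sites averaged 3.89% ± 4.71 in ESCs and 11.4% ± 14.9 in neurons of R1, and 2.93% ± 4.08 and 2.84% ± 3.68 in those of Tet/Tet. Most sites stayed low, since 54 of 75 were under 10% in R1 neurons. The level in R1 neurons was 5.66% in the first 500 bases downstream, against 14.6% in the 500 bases upstream and 18.1% between 500 and 1000 bases downstream. The sites nearest to the start on the transcribed side were thus the lowest.

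Of the endoderm factors, Hnf4a showed the highest level of all members. Hnf4a (ENSMUSG00000017950.16, chr2:163506808-163572910, plus strand) encodes a nuclear receptor of liver and visceral endoderm. Only 5 shared sites lay within 1 kb of the start of the gene record, all in the first 500 bases downstream. They averaged 38.7% ± 24.8 in R1 ESCs and 93.9% ± 2.41 in R1 neurons, with 38.6% ± 31.6 and 16.0% ± 3.45 in the Tet/Tet counterparts. The sites varied widely among themselves in both ESC libraries and hardly at all in either neuron library. At the start of the principal transcript, 40380 bases downstream, 11 shared sites averaged 55.8% in ESCs and 92.6% in neurons of R1, and 39.7% and 12.5% in those of Tet/Tet. Hnf4a was therefore highest in R1 neurons and lowest in Tet/Tet neurons at both starts.

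Foxa2 (ENSMUSG00000037025.11, chr2:148042877-148046969, minus strand) encodes a forkhead factor of definitive endoderm that is also used in the floor plate and in dopamine neurons. Its 42 shared sites averaged 3.89% ± 8.29 in R1 ESCs and 14.6% ± 23.6 in R1 neurons, with 4.23% ± 8.78 and 2.46% ± 4.35 in the Tet/Tet counterparts. The difference was widest upstream of the start. There the 2 sites beyond 500 bases went from 22.0% in R1 ESCs to 85.3% in R1 neurons, and the 6 nearer sites from 9.15% to 43.2%. The 9 sites in the first 500 bases downstream went from 1.75% to 15.1%. By contrast, the 25 sites between 500 and 1000 bases downstream were level, at 1.96% and 1.83%. At a second start, 1021 bases downstream, 55 sites averaged 3.56% in R1 ESCs and 4.30% in R1 neurons. In all, 16 of the 42 sites were at least 10 points higher in R1 neurons than in R1 ESCs, and the 39 sites inside the island averaged 1.93% and 9.06%.

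Sox17 (ENSMUSG00000025902.13, chr1:4490931-4497354, minus strand) encodes an HMG-box factor of endoderm and arterial endothelium. Its 29 shared sites averaged 2.63% ± 2.61 in ESCs and 10.2% ± 5.40 in neurons of R1, and 2.45% ± 2.39 and 3.99% ± 5.71 in those of Tet/Tet. In contrast to Foxa2 the difference was small and spread over the island, with no site above 26.1% in R1 neurons. The level in R1 neurons was 10.7% in the 500 bases upstream and 11.0% in the 500 bases downstream of the start.

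Gata6 (ENSMUSG00000005836.10, chr18:11052064-11085635, plus strand) encodes a GATA factor of primitive endoderm and heart. Its 34 shared sites averaged 3.57% ± 9.07 in R1 ESCs and 4.54% ± 10.8 in R1 neurons, with 4.07% ± 7.62 and 4.25% ± 12.4 in the Tet/Tet counterparts. All of these sites lay downstream of the start, and the 4 libraries differed by less than 1 point. For Gata6 the upstream side of the start was not measured in all 4 libraries.

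Among the trophoblast factors, the start of Cdx2 was the flattest of all members. Cdx2 (ENSMUSG00000029646.3, chr5:147300805-147307270, minus strand) encodes a homeobox factor of trophectoderm that is also used in hindgut and caudal mesoderm. Its 72 shared sites averaged 2.58% ± 7.50 in ESCs and 3.13% ± 7.45 in neurons of R1, and 2.52% ± 7.34 and 2.52% ± 7.16 in those of Tet/Tet. All of them lay downstream of the start, and 70 of the 72 were under 10% in every library. A single site was at 50.3%, 48.8%, 50.0% and 50.7% in the 4 libraries. That site did not follow cell type or genotype.

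Gata3 (ENSMUSG00000015619.10, chr2:9857078-9890034, minus strand) encodes a GATA factor of trophoblast and T cells that is also used in some neurons. Its 35 shared sites averaged 5.64% ± 7.22 in R1 ESCs and 16.2% ± 25.6 in R1 neurons, with 4.96% ± 7.40 and 4.01% ± 10.6 in the Tet/Tet counterparts. The 4 sites between 1000 and 501 bases upstream went from 19.5% in R1 ESCs to 79.2% in R1 neurons, and the 14 sites in the first 500 bases downstream from 3.58% to 5.31%. At the start of the principal transcript, 11434 bases downstream, the 61 shared sites gave 5.37% in R1 ESCs and 3.84% in R1 neurons. Gata3 was thus at least 10 points higher in R1 neurons at the start of the gene record and nearly level, at -1.53 points, at that of the principal transcript.

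Elf5 (ENSMUSG00000027186.14, chr2:103411688-103450989, plus strand) encodes an ETS factor of trophoblast stem cells and mammary epithelium. No site within 1 kb of the start of its gene record was listed in all 4 libraries. R1 ESCs had 2 sites there, both at 0%, Tet/Tet ESCs had none, the 9 sites of R1 neurons were all at 100%, and the 7 sites of Tet/Tet neurons averaged 3.57%. Those values come from different sites and were not compared. Around the start located 12374 bases downstream, 13 shared sites averaged 32.9% in ESCs and 78.3% in neurons of R1, and 25.8% and 15.5% in those of Tet/Tet. At that start Elf5 had the same order of libraries as Hnf4a.

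**Figure D2:**
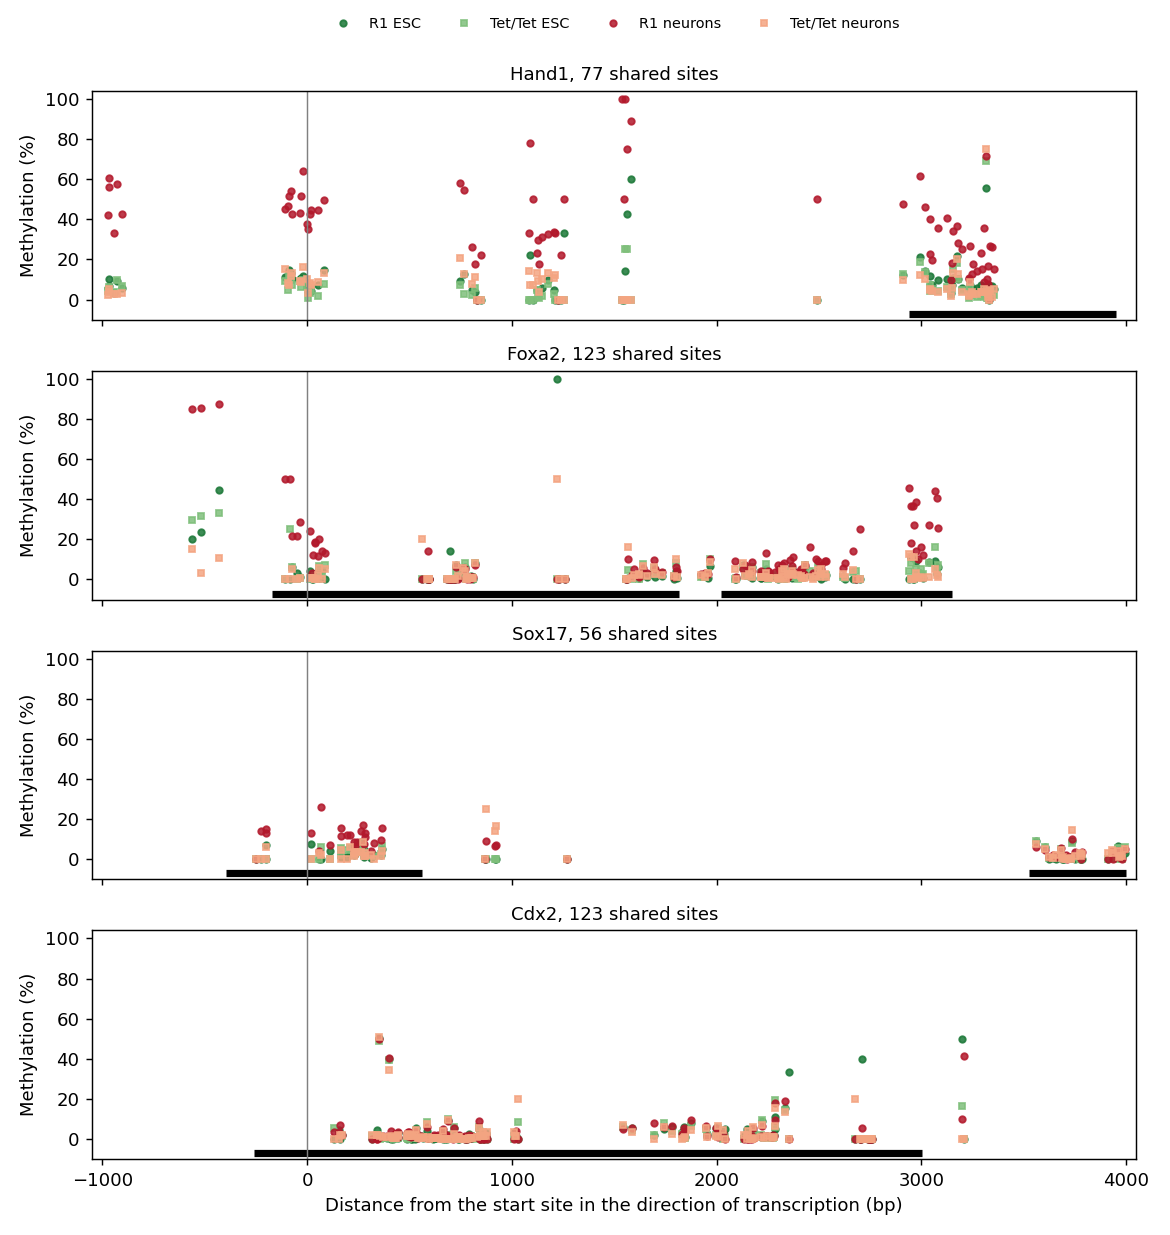
Methylation in percent (vertical axis) of each shared site against its distance in bp from the start site (horizontal axis) at Hand1, Foxa2, Sox17 and Cdx2, with 1 point per site and library. Black bars are CpG islands. R1 neurons lie above the other libraries on both sides of the Hand1 start and upstream of the Foxa2 start, where 2 sites average 85.3%, while the 4 libraries overlap along the Cdx2 island.

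In the Tet/Tet line none of the 9 genes was at least 10 points higher in neurons than in ESCs within 1 kb of the start, against 0.593% of all genes. Gata4 was 29.1 points lower and Hnf4a 22.6 points lower, which made 2 of 9 members lower against 7.35% of all genes. Hand1 was 2.54 points higher, Sox17 1.54 points higher, and the remaining 5 members lay within 2 points of 0. The 2 genes that were lower in Tet/Tet neurons were the only ones that could be. The other measured members were at 5.68% or less in Tet/Tet ESCs, so a fall of 10 points was not possible there. No member was apart between Tet/Tet ESCs and R1 ESCs, where 2.55% of all genes were higher and 1.12% lower in Tet/Tet ESCs. The largest of those differences was 5.54 points, at Gata4. Between the neuron libraries, the same 5 members that were higher in R1 neurons than in R1 ESCs were lower in Tet/Tet neurons than in R1 neurons, against 26.6% of all genes. Both comparisons share the R1 neuron library, so the count of 5 is not a second observation. None was higher in Tet/Tet neurons, against 0.0436% of all genes.

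**Figure D3:**
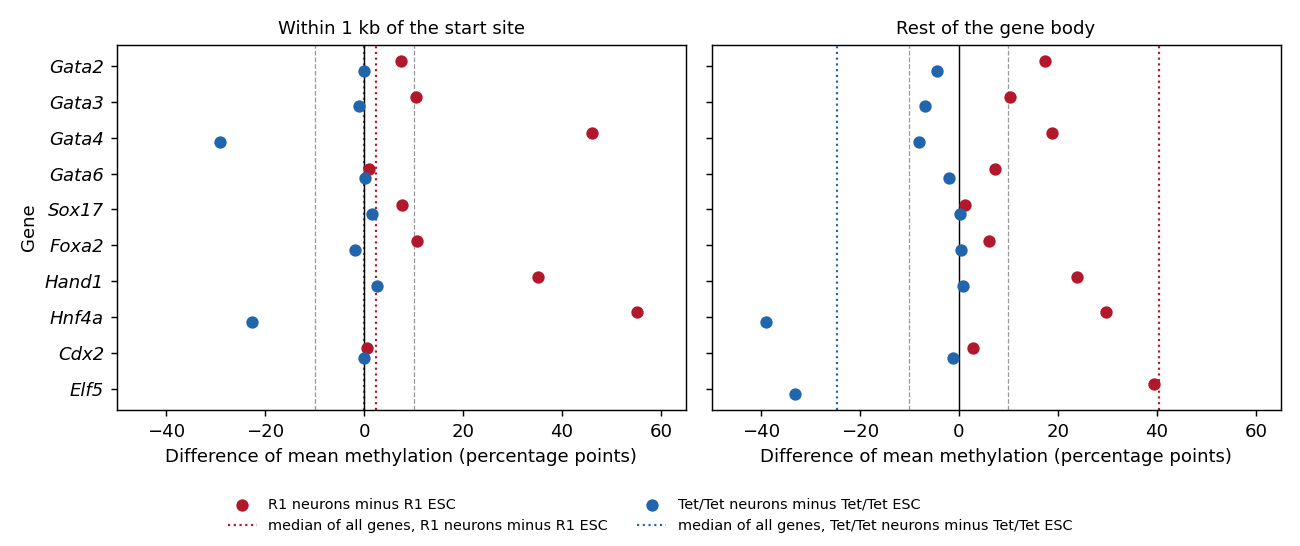
Difference of mean methylation in percentage points (horizontal axis) between neurons and ESCs for each gene (vertical axis), in R1 (red) and Tet/Tet (blue), within 1 kb of the start site (left) and in the rest of the gene body (right). Dotted lines are the medians over all genes and dashed lines mark 10 points. Hnf4a at 55.2 and Gata4 at 46.0 points lie furthest right on the left, while on the right all members lie in R1 between 0 and the median of all genes, 40.4 points.

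In the rest of the gene body all 10 members were measured, and their levels at shared sites were low compared with other genes. At all members but Hnf4a and Elf5, most of these sites lay inside CpG islands. The share inside islands is not given for all genes. The median levels of the members were 10.6%, 7.81%, 25.8% and 5.40%. For all 11684 genes measured, the medians were 38.7%, 41.4%, 88.5% and 15.0%. In R1 neurons, 6 of 10 members were at least 10 points higher than in R1 ESCs, which is below the 94.4% of all genes that were. None was lower, against 0.0171%. The median difference was 13.9 points for the members and 40.4 points for all genes.

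Hnf4a and Elf5 were the members with methylated gene bodies. The 74 sites of Hnf4a averaged 60.4% ± 27.9 in ESCs and 90.1% ± 12.4 in neurons of R1, and 53.2% ± 26.5 and 14.3% ± 11.1 in those of Tet/Tet. The 39 sites of Elf5 averaged 48.4% ± 28.9, 50.2% ± 24.9, 87.9% ± 18.4 and 16.9% ± 11.6. In R1 neurons both were near the 88.5% median of all genes. They were also the only members at least 10 points lower in Tet/Tet neurons than in Tet/Tet ESCs, 2 of 10 against 75.9% of all genes, and no member was higher, against 0.573%. The bodies of Gata2, Gata6, Sox17, Foxa2, Hand1 and Cdx2 were under 10% in Tet/Tet ESCs, so they could not be called lower.

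The bodies of Gata2, Gata3, Gata4 and Hand1 were in between. Hand1 (51 sites) averaged 9.72% in R1 ESCs and 33.7% in R1 neurons, with 6.00% and 6.86% in the Tet/Tet counterparts. Gata4 (351 sites) averaged 13.0%, 13.6%, 31.8% and 5.62%. Gata2 (212 sites) averaged 11.5%, 9.61%, 28.9% and 5.18%. In R1 neurons these 3 bodies lay between 28.9% and 33.7%, far below the 88.5% median of all genes. Gata3 (326 sites) averaged 12.3%, 12.9%, 22.6% and 6.04%.

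The bodies of Gata6, Cdx2, Foxa2 and Sox17 were the lowest over their shared sites, most of which lay inside CpG islands. Those inside islands were 172 of 184 at Gata6, 49 of 59 at Cdx2, 77 of 81 at Foxa2 and 129 of 130 at Sox17. Outside islands, the 12 sites of Gata6 averaged 38.0% in R1 ESCs and 59.4% in R1 neurons. The 10 sites of Cdx2 outside islands averaged 19.7% and 42.8%. Foxa2 and Sox17 had fewer than 5 sites there. Gata6 (184 sites) averaged 4.68% in ESCs and 12.0% in neurons of R1, and 4.47% and 2.48% in those of Tet/Tet. Cdx2 (59 sites) averaged 7.15%, 4.42%, 9.93% and 3.18%, and Foxa2 (81 sites) 3.50%, 2.88%, 9.48% and 3.40%. Over all shared sites, none of these bodies was 10 points apart between any pair of ESC and neuron libraries of the same line. With each library's own sites, the body of Gata6 was at 7.02% in ESCs and 29.6% in neurons of R1, and that of Foxa2 at 4.35% and 15.8%, so both then passed 10 points. Sox17 (130 sites) averaged 1.65%, 1.83%, 2.93% and 1.99%, and only 1.10% of all genes had as small or a smaller difference between R1 neurons and R1 ESCs. At these sites, nearly all inside islands, the body of Sox17 was therefore nearly unmethylated in all 4 libraries. In the bodies no member was apart between Tet/Tet ESCs and R1 ESCs, where 11.0% of all genes were higher and 4.17% lower. Between the neuron libraries, 6 of 10 bodies were lower in Tet/Tet neurons against 96.2% of all genes, and none was higher against 0.00856%.

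The CpG islands of these genes were also compared, although much of the gene body difference lay outside them. Outside islands, 8 of 8 measured bodies were at least 10 points higher in R1 neurons than in R1 ESCs, and inside islands 2 of 9. No share of all genes is given for these 2 counts. Of 37 islands in or next to the 10 genes, 31 had at least 5 shared sites, and 7 of these were at least 10 points higher in R1 neurons than in R1 ESCs, a smaller share than the 47.2% of all 20476 islands measured in the same way. The island at the 3′ end of Gata3, over coding sequence and UTR, had the widest gap. Its 14 sites were at 19.4% in R1 ESCs and 93.9% in R1 neurons, with 24.2% and 17.4% in the Tet/Tet counterparts. The other 7 Gata3 islands were at 24.2% or less in R1 neurons, so a nearly fully methylated island and nearly unmethylated ones lay in the same gene.

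Gata4 gave the same kind of contrast within a short distance. The island at the start of its principal transcript (54 sites) was at 3.74% in ESCs and 3.19% in neurons of R1, and 3.65% and 3.07% in those of Tet/Tet. The next island downstream (16 sites) was at 10.0%, 10.4%, 36.4% and 6.26%. The island after that, over coding sequence (69 sites), was at 5.56%, 4.69%, 32.8% and 4.87%. In R1 neurons the start island of Gata4 was thus low between islands that were not. Upstream of it, the 2 islands nearest to the start of the gene record were at 31.1% and 42.4% in R1 neurons, from 7.29% and 10.4% in R1 ESCs.

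At Hand1 the island over coding sequence and 3′ end (31 sites) went from 8.95% in R1 ESCs to 24.8% in R1 neurons. The island beyond the end of Hand1 (44 sites) went from 3.78% to 6.87%. At Gata6 a coding island 6861 bases downstream of the start (12 sites) went from 3.58% to 18.9%, while the island at its start stayed at 4.58% in R1 neurons. The Cdx2 island of 3265 bases, which covers the start and most of the gene, was at 3.39% in R1 ESCs and 3.17% in R1 neurons, with 2.57% and 2.80% in the Tet/Tet counterparts. The only island of Hnf4a (8 sites, coding) was already at 93.3% in R1 ESCs. It was at 94.7% in R1 neurons. Tet/Tet gave 78.1% for ESCs and 29.3% for neurons, and this was the one island of the 31 at least 10 points apart between the ESC libraries, against 11.3% of all islands.

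**Figure D4:**
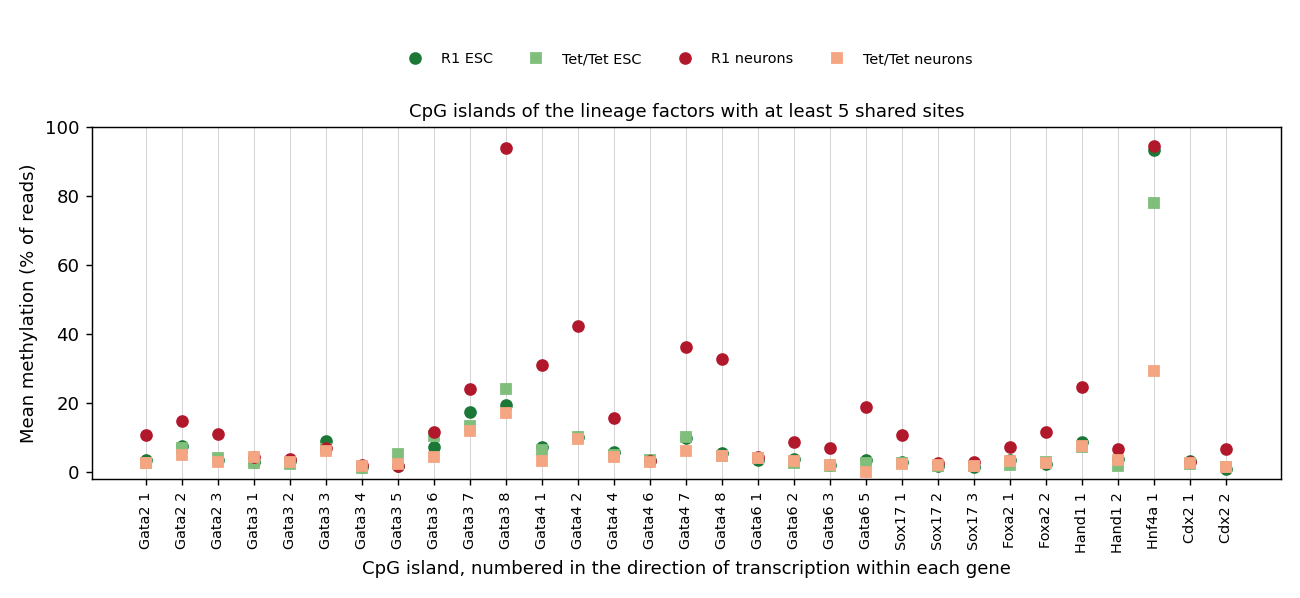
Mean methylation in percent of reads (vertical axis) of the 31 CpG islands with at least 5 shared sites, in the 4 libraries, ordered by gene and numbered in the direction of transcription (horizontal axis). The last Gata3 island stands at 93.9% in R1 neurons, the Gata4 islands around its start island lie between 15.7% and 42.4%, and the 3 Sox17 islands and the large Cdx2 island stay at 10.9% or less.

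The low stretch around a start was also measured, as the distance from the start to the nearest shared site above 50% on either side, searched for 20 kb. At Hand1 it shrank from 6952 bases in R1 ESCs to 764 in R1 neurons, while Tet/Tet gave 8661 and 9124. At Gata2 it was 7929 bases for ESCs of R1 and 967 for its neurons, and 13258 for ESCs of Tet/Tet. No upstream site exceeded 50% in Tet/Tet neurons. At both genes the low stretch was shortest in R1 neurons. The width is set by single sites. At Gata2 in R1 neurons, the downstream edge was a single site at 66.7%, 434 bases from the start. The sites at 417 and 454 bases were both at 4.17% there. At Cdx2 the width was 2434 bases in R1 ESCs and 7202 in R1 neurons, because of the single site near 50% described above.

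Other genes of the same lineages, from lists chosen with earlier results of these data known, were measured within 1 kb of the start. Of 26 other mesoderm genes 16 had enough sites, and 7 were at least 10 points higher in R1 neurons than in R1 ESCs. For endoderm it was 5 of 11 measured of 14 listed, and for trophoblast 2 of 9 measured of 14 listed, against the 26.2% of all genes. No measured gene of the 3 lists was lower. A gene in a part of the genome not analysed in Tet/Tet neurons has no shared site, so it was not measured, also in R1. The median differences were 4.97, 9.01 and 3.13 points, against 2.36 for all genes. In the Tet/Tet line none of these genes was at least 10 points higher in neurons than in ESCs, while 3 mesoderm genes, no endoderm gene and 1 trophoblast gene were lower, against 0.593% of all genes higher and 7.35% lower.

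Msgn1, a factor of presomitic mesoderm, had the largest difference of the mesoderm list: 28.3% in ESCs and 92.9% in neurons of R1, and 35.4% and 18% in those of Tet/Tet. Myod1, the skeletal muscle factor, was at 11.8%, 9.47%, 49.0% and 7.68%. Snai2, a factor of mesenchymal cells and neural crest, was the lowest of that list in R1 neurons, at 2.54%. Sox7, a relative of Sox17 in endoderm and vessels, was at 2.16%, 2.01%, 23.4% and 3.72%, and Foxa3, a relative of Foxa2 in liver and gut, at 4.33%, 4.04%, 23.0% and 5.61%. The difference between R1 neurons and R1 ESCs was 21.2 points at Sox7, against 7.58 at Sox17, and 18.7 points at Foxa3, against 10.7 at Foxa2. Prox1, a factor of liver and lymphatic vessels, was lowest of its list in R1 neurons at 1.88%. Of the trophoblast list, Krt18, a keratin of simple epithelia, was at 4.50%, 7.65%, 43.6% and 11.0%. Esrrb, a nuclear receptor of trophoblast stem cells and also of ESCs, was at 39.4%, 40.9%, 76.8% and 9.84%. Tead4, the partner of YAP in trophectoderm, was the lowest in R1 neurons at 1.98%. Each list therefore held genes with large differences beside genes that were level in all libraries, as the 10 members did.

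**Figure D5:**
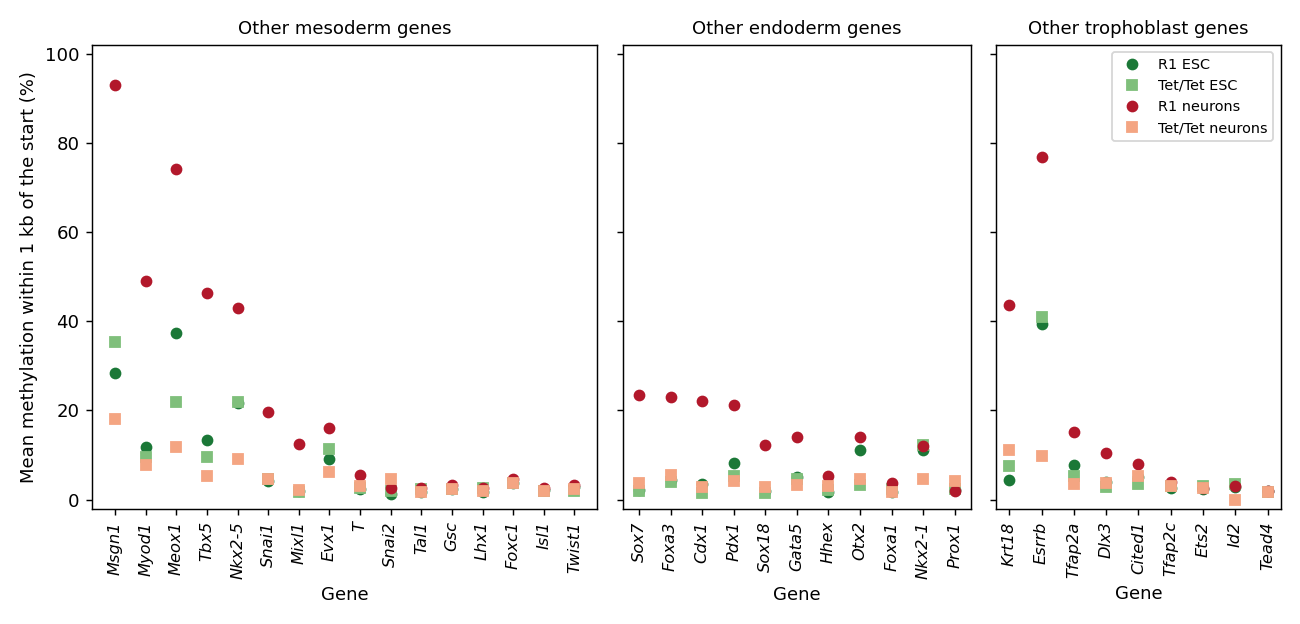
Mean methylation in percent (vertical axis) within 1 kb of the start of the other mesoderm, endoderm and trophoblast genes with at least 5 shared sites (horizontal axis, ordered by the difference between R1 neurons and R1 ESCs), in the 4 libraries. R1 neurons reach 92.9% at Msgn1 and 76.8% at Esrrb, and the right end of each panel shows genes at which the 4 libraries lie close together.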

How the data were processed

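The deposited tables held, per CpG site, the percent of reads methylated, as the authors made them with 1 table per library. Per the labels, the submitters' processing notes name Trim Galore 0.6.4, FastQC 0.11.8, Bismark 0.19.0, MethylDackel 0.3.0 and the build mm10. No read counts were used here, so depth and counting error are unknown, and sites with few reads weigh as much as others. MspI digestion also limits which sites are read. The libraries listed between 2311939 and 5298360 sites. Python 3.11.15, numpy 2.4.6, pandas 2.3.3 and matplotlib 3.10.9 were used with GRCm38 and GENCODE M21. Sites were averaged within 1 kb of the 5′ end of the gene record and over the rest of it. CpG islands were merged windows of over 200 bases with at least 50% G+C and an observed to expected CpG ratio above 0.6. In Tet/Tet neurons, chromosomes 8 and 9 and stretches of 7 and 10 were not analysed here, and all members lie elsewhere. The script was tested on simulated data. The members and gene lists were chosen with earlier results of these data known. All members were named; from each further list, the genes named were the 2 with the largest difference between R1 neurons and R1 ESCs and the 1 with the lowest level in R1 neurons. From the endoderm list, 2 genes are not reported here and were left out of its counts and of this rule. Groups followed the labels, with 1 library each, so no statistical test was run.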

Additional observations from a re-analysis of the deposited data

Results flagged for a closer look

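At 2 genes, neurons and ESCs differed in opposite directions in R1 and Tet/Tet, each by at least 10 points, within 1 kb of the start. The neuron minus ESC difference in Tet/Tet minus that in R1 was -75.2 points at Gata4 and -77.8 points at Hnf4a. In the rest of the gene body the same was seen at Hnf4a, at -68.6 points, and at Elf5, at -72.7 points. With 1 library per condition these differences were not tested. The median of all genes also moved in opposite directions in the gene bodies, by 40.4 points in R1 and by -24.7 points in Tet/Tet. There, 94.4% of all genes were at least 10 points higher in R1 neurons than in R1 ESCs. In Tet/Tet, 75.9% were at least 10 points lower in neurons than in ESCs. Within 1 kb of the start these shares were 26.2% and 7.35%. The share of all genes that met both was not counted.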

How the results depend on the processing

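No paired analysis was possible because each condition had 1 library. The counts that follow are of members, without the share of all genes under each alternative. Within 1 kb of the start, the 5 members higher in R1 neurons than in R1 ESCs became 3 with each library's own sites, with medians over sites, with 25 points, with at least 10 sites, or with 500 bp to either side. The count was 1 within MspI fragments of 40 to 220 bp (7 genes measured) and 0 inside islands. The 2 members lower in Tet/Tet neurons than in Tet/Tet ESCs became 1 with 25 points or 500 bp, and 0 in MspI fragments, with at least 10 sites or inside islands. The 0 members apart between the ESC libraries became 1 with own sites, with 5 points or at the start of the principal transcript. The 5 members lower in Tet/Tet than in R1 neurons became 3 with medians, 25 points, at least 10 sites or 500 bp, 2 in MspI fragments and 0 inside islands. In the gene body, the 6 members higher in R1 neurons than in R1 ESCs became 2 with 25 points or inside islands, and 8 with own sites, with 5 points, outside islands (8 genes measured) or at every annotated transcript start. The 2 lower in Tet/Tet neurons than in Tet/Tet ESCs became 4 with 100 bp stretches or 5 points, 6 outside islands and 1 inside. The 0 apart between the ESC libraries became 1 with 5 points or inside islands. The 6 apart between the neuron libraries became 9 with sites listed in both libraries, with own sites or with 5 points. That count was 8 with 100 bp stretches, outside islands (8 genes measured) or at every annotated transcript start. It was 5 with medians, 4 with 25 points and 3 inside islands. With own sites, Hnf4a within 1 kb was at 83.5% in neurons of R1 and 5.33% in neurons of Tet/Tet. At the start of the principal transcript, an alternative chosen after seeing the data, Gata3 was -1.53 points from R1 ESCs to R1 neurons. The cause was not tested. The unknown depth limits every site, and Hnf4a and Gata4 near the start rest on 5 and 9 sites.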
